A study of Mus musculus with 5 samples.

Results

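The Hox genes described here are the 39 genes whose symbol is Hox followed by a cluster letter and a number, out of 51912 genes listed for each library. The rule for membership used the symbol alone and no measured value, although earlier results of these data were known when it was set. The Hoxa cluster on chromosome 6 contributed 11 members, the Hoxb cluster on chromosome 11 contributed 10, the Hoxc cluster on chromosome 15 contributed 9 and the Hoxd cluster on chromosome 2 contributed 9. Paralog groups 9 to 13, at the 5′ side of each cluster, held 16 members, and groups 1 to 8 held 23.

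Hox genes encode homeodomain transcription factors that give cells along the body axis their position. Within a cluster the order of the genes follows the order of their expression, so that members at the 3′ side act towards the head and members at the 5′ side act towards the tail and in the urogenital tract. Genes of the same number in different clusters are paralogs and can replace each other in part. In the male tract, Hoxa13 and Hoxd13 are known for development of the prostate and seminal vesicle, Hoxb13 for the secretory cells of the prostate, and Hoxa10 and Hoxa11 for the vas deferens and neighbouring ducts.

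Total RNA was sequenced from dorsolateral prostate of male mice aged 3 months. All mice carried Ghrflox/flox, the floxed growth hormone receptor gene, and all were given tamoxifen, 250 mg/kg on each of 5 days, with collection 1 month later. The 3 control mice had the genotype Ghrflox/flox without Cre. The 2 mice labelled Ghr deletion had the genotype Ghrflox/flox;ROSA26Cre-ERT2+/0, in which a tamoxifen-dependent Cre is made from ROSA26, a locus active in most cell types, so deletion would not be limited to the prostate. Nothing in the design marks tamoxifen or Cre alone, because every mouse had tamoxifen and no mouse had Cre without the floxed alleles.

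The libraries held 19517831 to 41553558 expected counts, where an expected count is the number of reads a model assigns to a gene. Values between libraries are given as CPM, the count relative to the scaled library size, and values between genes of a library as TPM, which also divides by length. Series of 5 values list control replicates 1, 2 and 3 and then replicates 1 and 2 labelled Ghr deletion. Ghr itself was at 10.1, 11.8, 13.2, 21.5 and 10.2 CPM over the whole gene, so its total does not show the deletion, and the group is called by its label. The groups were compared with edgeR's quasi-likelihood test on 18590 genes with enough counts, 27 of them Hox genes, and with Benjamini-Hochberg adjustment over all 18590. A log2 fold change is positive where the deletion-labelled libraries are higher. The p-values measure the spread between these 5 samples only.

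Control replicate 3 stood apart from the other controls in markers of neighbouring organs. The summed level of 9 genes of distal luminal prostate epithelium was 3085, 3345, 208.2, 202.9 and 322.4 CPM, with most of the sum of control replicate 1 from Spink1, at 2937 CPM. Without Spink1 the other 8 genes summed to 147.8, 2453, 206.7, 202.9 and 321.9 CPM, so control replicate 2 alone stood above the rest and control replicate 1 was lowest. Pbsn, a secretory gene of the list, was at 11.1, 475.1, 0.816, 0.0454 and 8.76 CPM. The summed level of 8 genes of epididymis and vas deferens was 1.98, 9.20, 1820, 569.5 and 2146 CPM, so control replicates 1 and 2 lay below the other 3 libraries. Of these 8 genes, Crisp1 and Akr1b7 made up most of the sum, while Lcn5, Lcn8 and Spag11b had 0 counts in every library. The 8 seminal vesicle genes summed to 451800, 234400, 234800, 105000 and 183300 CPM, with both libraries labelled Ghr deletion below every control. Of the 8, 6 were lower in that group without overlap, as were 12.5% of all tested genes. Svs1 was at 32920, 22520, 58.6, 0.0454 and 7.90 CPM, so control replicate 3 was much nearer to the deletion-labelled libraries than to the other controls. This also held for Svs3a, Svs3b, Svs4 and Svs6. The sum of control replicate 3 came mostly from Svs2, at 140500 CPM, with Svs5 and Pate4 at 56110 and 33090 CPM. Smooth muscle markers summed to 5895, 2385, 8104, 6642 and 7227 CPM, fibroblast markers to 2477, 1306, 3134, 3918 and 1848 CPM, and nerve markers to 5.86, 121.3, 9.26, 9.42 and 19.8 CPM. The libraries labelled dorsolateral prostate thus differed in markers of adjacent organs, and Pbsn, a defining marker of prostate epithelium, was near 0 in some. In bulk tissue, fewer cells of a type and less RNA per cell cannot be told apart. Whether the organ markers have a part in the Hox values below was not tested.

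Hox transcripts were present in every library at low levels. Of the 39 members, 23, 34, 26, 25 and 33 had more than 3 expected counts, and 10, 4, 5, 8 and 4 had 0. Summed over all members, Hox genes had 4399, 5949, 14716, 12701 and 11588 expected counts, or 57.9, 31.8, 105.5, 173.4 and 137.0 TPM. On the scaled CPM the same sum was 271.5, 305.6, 324.5, 288.1 and 292.4, with overlap between the groups. The number of members at 1 TPM or more was 16, 12, 16, 17 and 17. The filter on low counts removed 12 members, and none of them had more than 30 expected counts in any library.

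**Figure D1:**
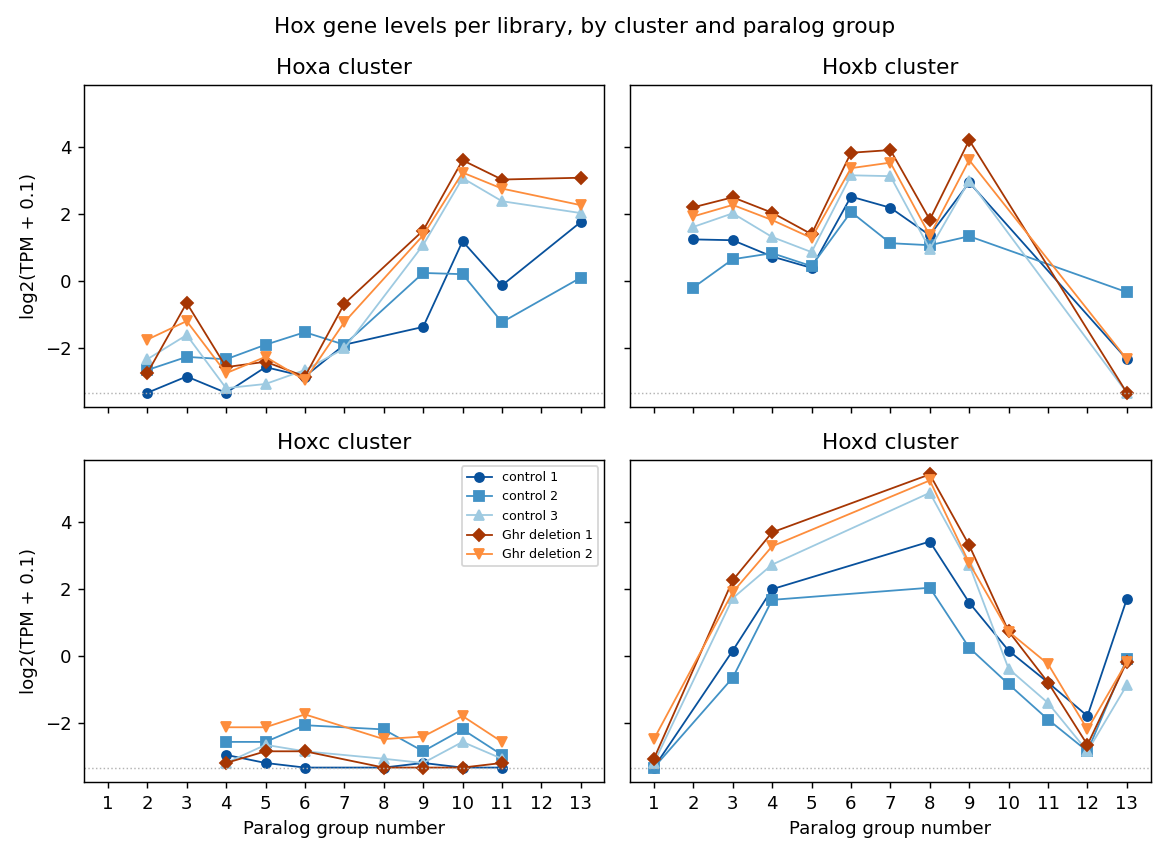
Level of the Hox genes with more than 3 expected counts in at least 1 library, as log2(TPM + 0.1) in each of the 5 libraries, by cluster and paralog group. Hoxd8 is the highest on average, while no Hoxc member exceeds 0.2 TPM. In clusters that hold abundant members, Hoxb13, Hoxd1, Hoxd11 and Hoxd12 stay below 1 TPM, as do Hoxa2, Hoxa3, Hoxa4, Hoxa5, Hoxa6 and Hoxa7.

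The clusters differed widely in level. The Hoxb cluster took 47.8%, 52.2%, 36.4%, 39.04% and 37.1% of summed Hox TPM and the Hoxd cluster 40.2%, 32.3%, 44.4%, 42.0% and 44.5%. The Hoxa cluster took 12.0%, 13.6%, 19.0%, 18.9% and 17.8%. The Hoxc cluster, with 9 members, took 0.0864%, 1.86%, 0.218%, 0.0577% and 0.650%. Control replicates 1 and 2 thus had more of their Hox TPM in Hoxb and less in Hoxa than the other 3 libraries.

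Members were ordered by their mean share of summed Hox TPM, with each library weighted equally because the sum differed between libraries. Hoxd8 came first at 22.1% and was above Hoxb9, at 9.56%, in 5 of 5 libraries. In control replicate 2 alone another member, Hoxb6 at 4.10 TPM, was above Hoxd8 at 4.01 TPM. The genes that followed were Hoxb6 (9.35%), Hoxb7 (7.93%), Hoxd4 (7.41%), Hoxa10 (5.77%), Hoxd9 (5.04%), Hoxa13 (4.18%), Hoxb3 (3.80%) and Hoxa11 (3.38%). From Hoxb9 down, no pair of neighbours in this order kept it in all 5 libraries. Hoxd4 shares 46.8% of its 50-base words with other genes on the same strand, Gm28230 and Hoxd3 among them, so its count depends on how reads were shared out.

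Paralog groups 9 to 13 together took 38.2%, 29.6%, 33.6%, 36.0% and 33.5% of summed Hox TPM, which is 33.8 ± 4.29% (SD, n = 3) in controls and 34.8 ± 1.80% (SD, n = 2) in the deletion-labelled libraries. The means differed by less than the spread among the controls. The make-up of this share did vary. Group 13 took 11.3%, 7.97%, 4.22%, 5.31% and 4.10%, and was higher in control replicates 1 and 2 than in the other 3 libraries. Groups 10 and 11 were lower in those same controls, at 5.54%, 5.17%, 8.61%, 7.90% and 8.12% for group 10 and 2.25%, 1.67%, 5.16%, 4.96% and 5.49% for group 11. Group 9 took 18.7%, 14.7%, 15.6%, 17.8% and 15.7%, and group 12 at most 0.328% in any library. Within groups 9 to 13 the largest share belonged to group 9 in each library, and Hoxb9 was its largest member in each. In control replicate 3 Hoxb9 took 7.50% and Hoxd9 6.17%.

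**Figure D2:**
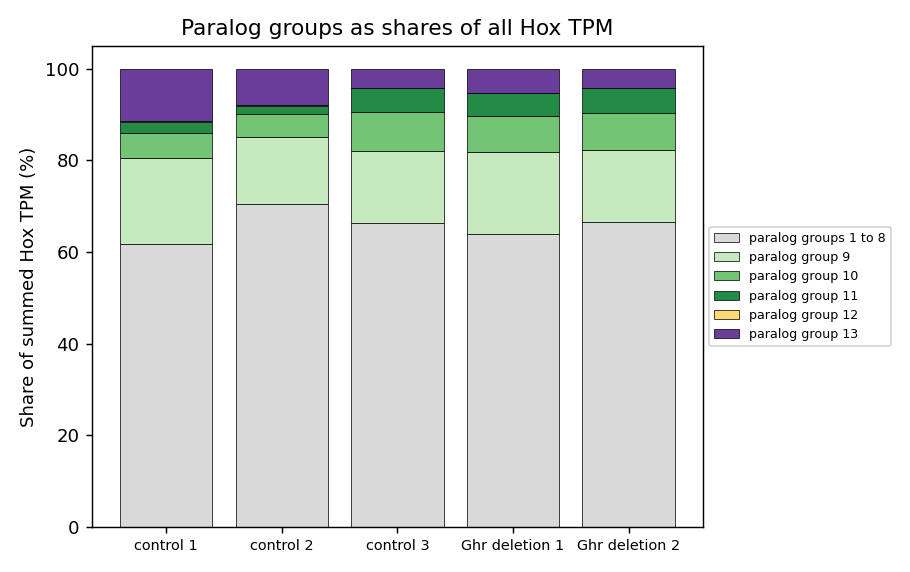
Share of summed Hox TPM taken by each of paralog groups 9 to 13 in each library, in percent. Group 13 is largest in control replicates 1 and 2 (11.3% and 7.97%), and groups 10 and 11 are larger in the other 3 libraries.

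Group 13 genes act at the tail end of the axis and in the urogenital sinus. Hoxd13 (chromosome 2, 74668310 to 74671599, plus strand, GRCm38) was at 17.8, 10.6, 1.76, 1.59 and 2.15 CPM, from 288, 207, 80, 70 and 85 expected counts. Control replicates 1 and 2 were high and control replicate 3 lay between the 2 deletion-labelled libraries, so the groups overlapped. The group means were 10.1 ± 8.02 CPM (SD, n = 3) and 1.87 ± 0.394 CPM (SD, n = 2). The log2 fold change was -2.42 (SE 0.94, 95% interval -4.74 to -0.10), with an unadjusted p of 0.0434. Its adjusted p from edgeR's quasi-likelihood test was 0.874. Without control replicate 3 it was -2.93 (adjusted p = 0.0723 by edgeR), and without control replicates 1 and 2, a comparison added after the values were seen that leaves 1 control, it was 0.08.

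Hoxa13 (chromosome 6, 52257694 to 52260880, minus strand), the paralog of Hoxd13 on chromosome 6, did not follow it. It was at 17.9, 10.5, 14.8, 16.2 and 12.3 CPM, with a 1.70-fold range over the 5 libraries. The log2 fold change was -0.01 (SE 0.29), and the value was positive under several other settings, up to 1.38 on the scale of log2(TPM + 0.1), where the median of all genes was 1.327. Hoxd13 was at 0.955 and 0.860 of the Hoxa13 level per length in control replicates 1 and 2, and at 0.113, 0.0940 and 0.167 in control replicate 3 and the libraries labelled Ghr deletion. This ratio lies within a library, so scaling between libraries does not enter it, but it was chosen after the values were seen.

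Hoxb13, known as a marker of prostate epithelium (chromosome 11, 96194316 to 96197447, plus strand) had 8, 150, 0, 0 and 9 expected counts, or 0.494, 7.71, 0, 0 and 0.227 CPM. Its level was thus carried by control replicate 2, the library that also had the highest Pbsn. Control replicate 3 and replicate 1 labelled Ghr deletion had none, where a count of 0 allows up to 3 counts, which is 0.0662 and 0.0681 CPM. The fitted log2 fold change of -4.56 (SE 2.61) rests on few libraries and is no bound. It was -3.57 without replicate 1 labelled Ghr deletion and -9.4 without replicate 2 of that group. Hoxc13 had 0 counts in all 5 libraries, so of the 4 genes of group 13 Hoxa13 was the one with at least 205 expected counts in each.

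Group 12 was low throughout. Hoxd12, the neighbour of Hoxd13, was at 1.11, 0.565, 0.176, 0.113 and 0.328 CPM, with a log2 fold change of -1.42 (SE 0.96). It was between 0.0520 and 0.150 of the Hoxd13 level per length in every library, and high in the same 2 controls. Hoxc12 had 0 counts in all 5 libraries.

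The members of group 11 had unlike patterns. Hoxa11 (chromosome 6, 52242106 to 52245810, minus strand), which patterns the ducts derived from the Wolffian duct, was at 4.20, 3.75, 18.2, 14.9 and 16.5 CPM. Control replicates 1 and 2 were low and control replicate 3 was the highest of the 5 libraries, so the groups overlapped. The log2 fold change was 0.83 (SE 0.71, 95% interval -0.92 to 2.59). Its adjusted p from edgeR's quasi-likelihood test was 0.874. Leaving out control replicate 1 or control replicate 2 gave 0.50 or 0.47, leaving out control replicate 3 gave 1.97 (adjusted p = 0.0723 by edgeR), and leaving out both replicates 1 and 2 of the controls gave -0.21. Hoxa11 shares 33.0% of its 50-base words with Hoxa11os on the opposite strand, and no source used here says whether counting used strand, so part of its count is uncertain.

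Hoxd11 did not show that pattern, at 3.77, 2.57, 1.5, 1.27 and 2.73 CPM with a log2 fold change of -0.38 (SE 0.56). It turned to 0.07 without replicate 1 labelled Ghr deletion. Hoxc11 had 0, 6, 3, 1 and 6 expected counts and did not pass the filter on low counts. The ratio of Hoxd13 to Hoxa11 per length was 3.84, 2.60, 0.0885, 0.0975 and 0.118. The largest value was 43.5 times the smallest, and control replicates 1 and 2 lay on one side and the remaining 3 libraries on the other.

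**Figure D3:**
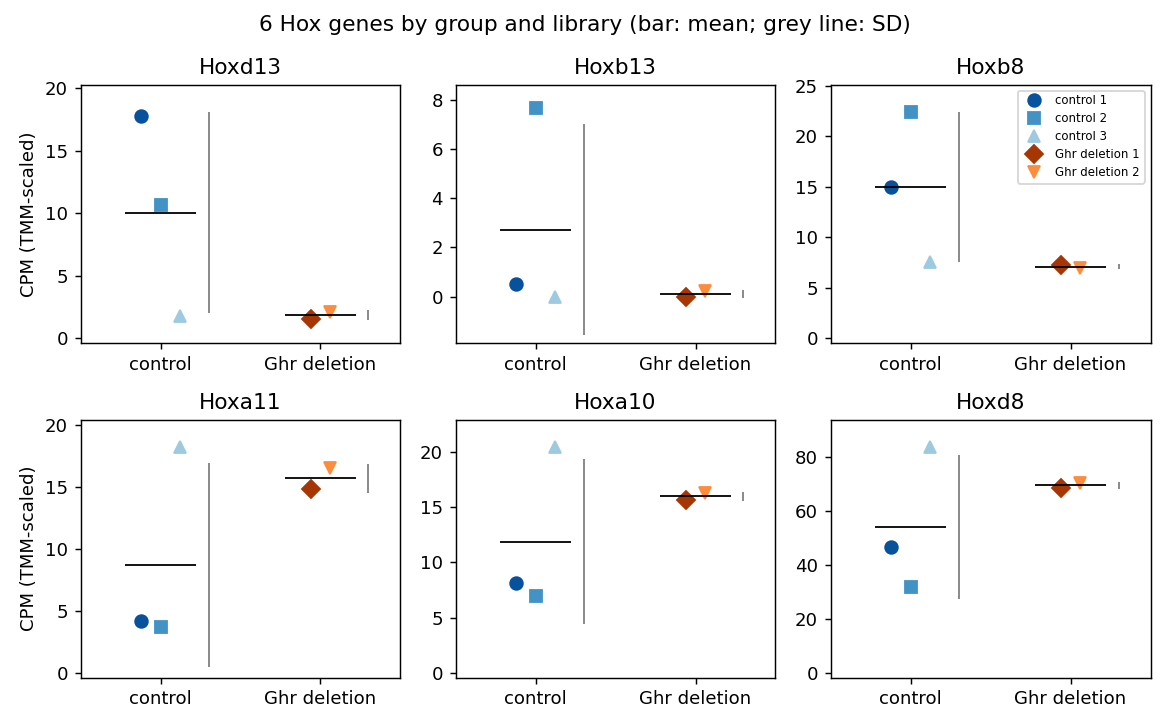
CPM of 6 Hox genes in each library, by group, with a bar for the mean and a line for the SD (n = 3 controls and n = 2 labelled Ghr deletion). For Hoxd13 and Hoxa11, control replicate 3 sits with the libraries labelled Ghr deletion, and for Hoxb13 control replicate 2 is alone at 7.71 CPM.

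The windows of 250 bases before the starts of Hoxd13, Hoxa13, Hoxa11 and Hoxa10 are shown. Hoxd13 was high in control replicates 1 and 2, and its paralog Hoxa13 did not follow it. Hoxa11 and Hoxa10 were both low in those controls. Of the 39 members, 22 matched the RefSeq table for GRCm38.p6, with 24 windows. The windows are chr2:74667975-74668224 on the plus strand for Hoxd13, and chr6:52260881-52261130, chr6:52245811-52246060 and chr6:52240855-52241104 on the minus strand for Hoxa13, Hoxa11 and Hoxa10. Each reads 5′ to 3′ towards the gene, and capitals mark matches to TATAAA or CCAAT.
Hoxd13: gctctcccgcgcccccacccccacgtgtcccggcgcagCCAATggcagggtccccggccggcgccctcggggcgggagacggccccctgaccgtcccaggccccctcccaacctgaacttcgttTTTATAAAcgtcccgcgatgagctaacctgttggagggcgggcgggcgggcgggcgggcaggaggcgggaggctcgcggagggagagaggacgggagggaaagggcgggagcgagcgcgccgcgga
Hoxa13: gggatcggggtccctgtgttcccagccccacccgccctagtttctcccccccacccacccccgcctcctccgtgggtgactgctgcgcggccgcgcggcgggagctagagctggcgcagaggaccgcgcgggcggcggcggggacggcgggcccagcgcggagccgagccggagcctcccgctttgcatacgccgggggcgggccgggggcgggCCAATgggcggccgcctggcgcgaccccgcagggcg
Hoxa11: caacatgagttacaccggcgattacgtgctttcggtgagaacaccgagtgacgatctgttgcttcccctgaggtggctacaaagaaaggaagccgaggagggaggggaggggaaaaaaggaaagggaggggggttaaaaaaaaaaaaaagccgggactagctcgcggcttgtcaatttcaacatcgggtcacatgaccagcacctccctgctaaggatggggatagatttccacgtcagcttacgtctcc
Hoxa10: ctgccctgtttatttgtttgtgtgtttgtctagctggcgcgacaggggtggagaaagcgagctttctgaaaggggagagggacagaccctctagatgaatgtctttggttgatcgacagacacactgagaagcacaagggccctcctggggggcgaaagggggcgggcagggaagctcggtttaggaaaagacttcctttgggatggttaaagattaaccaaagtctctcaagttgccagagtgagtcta
Hoxd13 and Hoxa13 have 31 and 35 CpG dinucleotides in these windows at 74.4% and 80% G or C, and Hoxa11 and Hoxa10 have 13 and 7 at 52.0% and 51.6%. The median window of all genes holds 6 CpG and the median Hox window 12.5. TATAAA, read on both strands, was found 2 times in the Hoxd13 window, where the matches overlap. It was in 4 of the 24 Hox windows and in 12.4% of all 32851 windows. CCAAT on either strand was found 1 time in each of the 2 group 13 windows shown. It was in 14 of the 24 Hox windows and in 33.8% of all windows. TGATNNAT, the PBX and HOX motif, was in 4 of the 24 Hox windows and 7.7% of all windows, and TTTATNG, the motif of CDX and posterior HOX proteins, in 2 of 24 and 9.8%. Neither was in the 4 windows shown. A match is a description of letters and not a bound site.

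Group 10 in part resembled Hoxa11. Hoxa10 (chromosome 6, minus strand), which also patterns the male ducts, was at 8.15, 6.99, 20.4, 15.7 and 16.2 CPM. Control replicates 1 and 2 were again below the other 3 libraries. The log2 fold change was 0.42 (SE 0.49), 1.07 without control replicate 3 (adjusted p = 0.17 by edgeR's quasi-likelihood test) and -0.35 without control replicates 1 and 2. Hoxd10 was at 4.07, 4.11, 1.83, 2.22 and 2.98 CPM, with a log2 fold change of -0.35 (SE 0.46), and was highest in those same controls. Hoxc10 had 0, 22, 9, 0 and 15 expected counts (log2 fold change -1.21, SE 1.79).

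In group 9, Hoxb9 had the narrowest range of the tested members of groups 9 to 13. It was at 43.8, 31.8, 31.9, 37.6 and 33.4 CPM, a 1.38-fold range, with a log2 fold change of -0.01 (SE 0.22). Hoxd9 was at 13.9, 11.7, 21.4, 16.6 and 15.5 CPM (log2 fold change 0.03, SE 0.30). Hoxa9 was at 2.04, 6.22, 6.07, 5.85 and 6.39 CPM (log2 fold change 0.35, SE 0.50), with control replicate 1 alone below the rest. Hoxc9 had at most 9 expected counts. The groups overlapped for all of these genes.

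Members of the Hoxd cluster differed in which libraries were high. Hoxd13, Hoxd12 and Hoxd10 were highest in control replicates 1 and 2. Hoxd11, which lies between Hoxd12 and Hoxd10, broke that pattern, since replicate 2 labelled Ghr deletion was above control replicate 2. Hoxd8 (chromosome 2, 74704615 to 74707933), at the 3′ side of these, was lowest in the same controls, at 46.8, 32.1, 83.8, 68.6 and 70.4 CPM (log2 fold change 0.36, SE 0.41). Hoxd9 and Hoxd3 were also lowest in those controls, but Hoxd4 was at 19.6, 30.8, 25.3, 25.8 and 25.7 CPM, with control replicate 2 the highest. Hoxd3 shares 60.2% of its 50-base words with other genes on the same strand, Gm28230 and Hoxd4 among them. The contrast of Hoxd3 with Hoxd4 therefore depends on how reads were shared out. Hoxd13 was at 0.299, 0.211, 0.0156, 0.0185 and 0.0210 of the Hoxd8 level per length. Without Hoxd8 the share of groups 9 to 13 was 42.3% in controls and 47.0% in the deletion-labelled libraries.

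**Figure D4:**
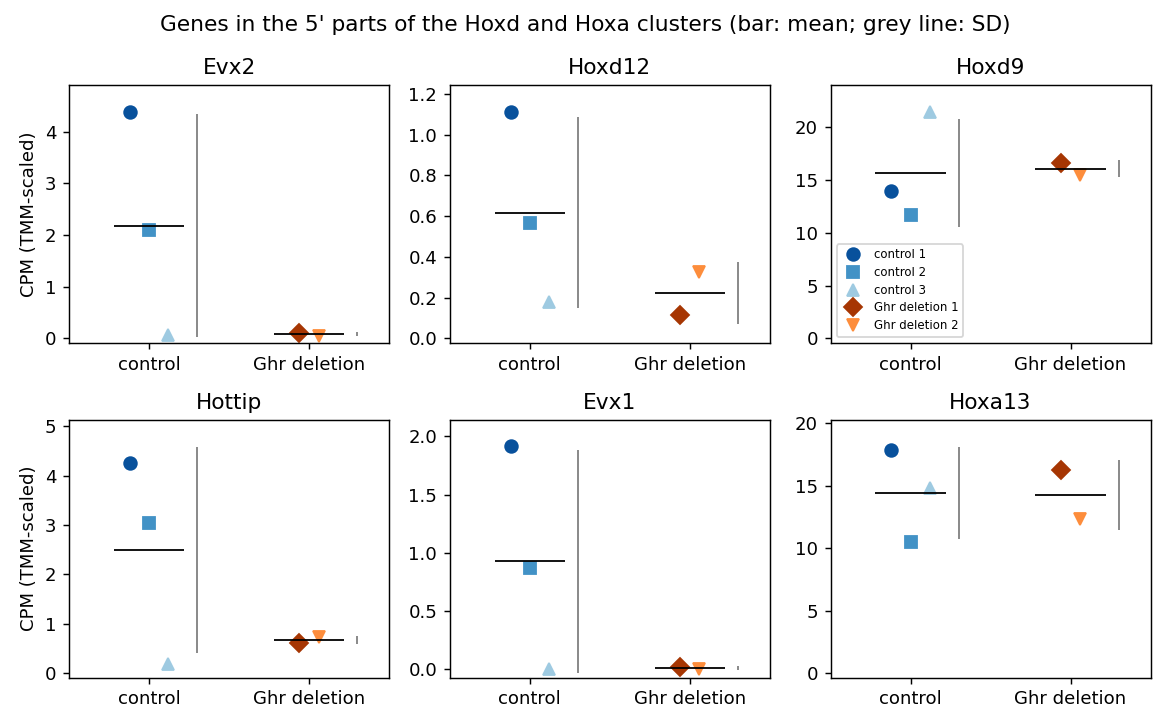
CPM of genes in the 5′ parts of the Hoxd and Hoxa clusters in each library, by group, with the mean as a bar and the SD as a line. Evx2 and Hoxd12 are high in control replicates 1 and 2 (Evx2 4.38 and 2.11 CPM). Both are lower in control replicate 3 and in both libraries labelled Ghr deletion. Hoxa13 does not follow this pattern, at 17.9, 10.5, 14.8, 16.2 and 12.3 CPM, and Hoxd9 is lowest in those same controls.

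Among groups 1 to 8, the tested members whose groups did not overlap were 3 genes of the Hoxb cluster, all lower in the deletion-labelled libraries, where 12.5% of all tested genes were lower in this way. Hoxb8, with the smallest p of that cluster among groups 1 to 8, was at 14.9, 22.4, 7.56, 7.26 and 6.94 CPM. Both libraries labelled Ghr deletion were below every control, although control replicate 3 differed from them by less than 1 CPM. The log2 fold change was -1.07 (SE 0.47) with an unadjusted p of 0.0624, and edgeR's quasi-likelihood test gave 0.874 after adjustment. Leaving out control replicate 2 gave -0.66, leaving out control replicate 3 gave -1.41, and leaving out both replicates 1 and 2 of the controls gave -0.09. Hoxb3 (9.88, 16.3, 12.4, 9.03 and 9.72 CPM) and Hoxb5 (6.67, 15.3, 6.97, 5.51 and 6.59 CPM) also did not overlap between the groups. For Hoxb3, 51.4% of its 50-base words lie in Hoxb3os on the opposite strand. Hoxb6, the most abundant Hoxb gene of groups 1 to 8 per length, was at 20.1, 32.3, 23.1, 20.9 and 18.8 CPM (log2 fold change -0.34, SE 0.26), and its groups overlapped. Hoxb1 had 0 counts throughout. The other tested members of groups 1 to 8 (Hoxa3, Hoxb2, Hoxb4, Hoxb7, Hoxc4, Hoxc5, Hoxd3 and Hoxd4) had log2 fold changes from -0.82 for Hoxc4 to 0.19 for Hoxd3.

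In the Hoxa cluster, Hoxa7 was at 0.432, 1.64, 0.353, 0.749 and 0.631 CPM (log2 fold change -0.21, SE 0.78), and in Hoxc the highest of groups 1 to 8, Hoxc6, had 0, 21, 4, 1 and 13 expected counts (log2 fold change -1.11, SE 1.71). Each of the 4 tested Hoxc genes had its highest CPM in control replicate 2, which is also the library with the highest summed nerve markers, 121.3 CPM. The peak was not particular to Hoxc. Hoxa3, Hoxa7 and Hoxb13 were also highest there, at 1.23, 1.64 and 7.71 CPM, as were more abundant members such as Hoxb4 and Hoxb8. Other members, such as Hoxd12, Hoxa11 and Hoxd8, were highest in another library. Whether the nerve markers have a part in these values was not tested.

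Over all 27 tested Hox genes, edgeR's quasi-likelihood test called 0 at the adjusted threshold of 0.05, and 0% of all 18590 genes. The adjusted p of the Hox genes ran from 0.874 to 0.992. At an unadjusted p under 0.05 there was 1 Hox gene, Hoxd13, against 4.26% of all genes. Groups that did not overlap were found for 0 Hox genes on the higher side, where all genes gave 10.8%, and for 3 on the lower side, Hoxb3, Hoxb5 and Hoxb8, where all genes gave 12.5%. The counts at the unadjusted threshold and on the lower side are near those backgrounds. The log2 fold changes were above 0 for 8 members and below 0 for 19, with a median of -0.34 against -0.01 over all tested genes. Of 12 tested members of groups 9 to 13, 4 were above 0 and 8 below, with a median of -0.18, and of 15 tested members of groups 1 to 8 the split was 4 and 11 with a median of -0.34. The split depends on scaling, since with library size alone it was 20 above and 7 below, where the median of all genes moved to 0.585. For DESeq2 the calls among the 27 were 0, with 2 passing unadjusted, where 0.436% of all genes were called and 6.69% passed unadjusted. For limma-voom they were 0, with 0 passing unadjusted, where 0% and 3.58% of all genes did.

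**Figure D5:**
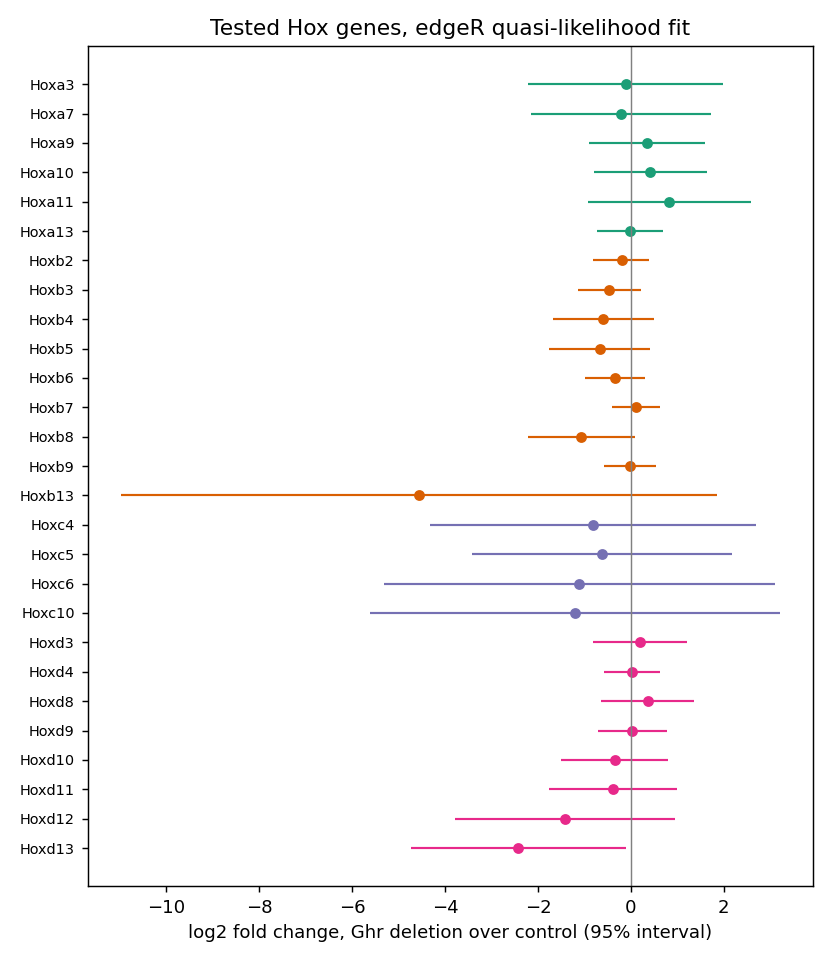
Log2 fold change of each tested Hox gene, libraries labelled Ghr deletion over controls, with its 95% interval from edgeR's quasi-likelihood test, coloured by cluster. Of the 27 genes, the interval of Hoxd13 (-4.74 to -0.10) is the one that does not include 0.

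HOX proteins bind DNA with homeodomain cofactors of the PBX, MEIS and PKNOX families. Of 9 such genes 8 were tested, and 0 passed by edgeR, DESeq2 or limma-voom, with 0 at an unadjusted p under 0.05 by each. Meis2 was at 22.8, 23.9, 58.8, 46.2 and 64.3 CPM (log2 fold change 0.65, SE 0.47), low in control replicates 1 and 2 as Hoxa11 and Hoxa10 were, and the value was 1.24 without control replicate 3 and -0.09 without control replicates 1 and 2. Pbx2 had a log2 fold change of -0.25 (SE 0.20). The median of the 8 was 0.10 against -0.01 over all genes.

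The noncoding RNAs of the clusters included 16 of 18 listed genes in the files, 6 of them tested, and 0 passed by the same 3 tools, with 0 at an unadjusted p under 0.05. Their median was -0.38. Hottip, transcribed beyond Hoxa13 at the 5′ end of the Hoxa cluster, was at 4.26, 3.03, 0.198, 0.613 and 0.732 CPM (log2 fold change -1.87, SE 1.16), high in control replicates 1 and 2, and the value was 1.75 without those controls. Hoxa11os was at 8.89, 40.6, 13.7, 9.12 and 13.3 CPM (log2 fold change -0.91, SE 0.67) and was highest in control replicate 2, unlike Hoxa11. Hoxb5os had a log2 fold change of -0.78 (SE 0.55). The 6 miRNA hairpin genes on the list had 0 counts throughout.

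Of 13 listed genes at the ends of the clusters, 11 were in the files and 10 were tested. By edgeR 0 passed, with 3 at an unadjusted p under 0.05, by DESeq2 0 with 3 and by limma-voom 0 with 0, where the unadjusted shares of all genes were 4.26%, 6.69% and 3.58%. The median was -0.28. Evx2, the homeobox gene beyond Hoxd13, was at 4.38, 2.11, 0.0662, 0.113 and 0.0505 CPM (log2 fold change -4.64, SE 1.71, unadjusted p 0.036). Evx1, beyond Hoxa13, was at 1.91, 0.873, 0, 0.0227 and 0 CPM, and its fitted value of -5.85 (SE 2.34) depends on the prior count. Skap1, an adaptor gene at the 3′ side of the Hoxb cluster, was at 14.6, 12.7, 0.838, 1.38 and 1.01 CPM (log2 fold change -2.96, SE 1.17). For all of these, control replicates 1 and 2 were high and control replicate 3 was near the deletion-labelled libraries or below them. Each had an adjusted p of 0.874 by edgeR. Without control replicate 3, Skap1 was at -3.51 and passed (adjusted p = 0.0465 by edgeR). In that fit 48 of 18288 tested genes passed, Skap1 among them. Without control replicates 1 and 2 Skap1 was at 0.52.

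Polycomb and Trithorax proteins hold Hox clusters silent or active. All 20 listed genes were tested and 0 passed by edgeR, DESeq2 or limma-voom, with 3, 4 and 3 at an unadjusted p under 0.05, against 4.26%, 6.69% and 3.58% of all genes. The median was -0.04. Among those with the smallest p were Men1 (log2 fold change -0.77, SE 0.21) and Ring1 (-0.98, SE 0.32), and for these the groups did not overlap, with 36.9, 47.8, 37.6, 24.8 and 23.0 CPM for Men1. Of the 20 genes, 5 were lower in the deletion-labelled libraries without overlap and 3 were higher, where all tested genes gave 12.5% and 10.8%. Of 14 genes of retinoic acid signalling and the Cdx family, which set Hox expression in the embryo, 9 were tested and 0 passed by these tools, with 0 at an unadjusted p under 0.05 and a median of 0.40. Rara was at -0.75 (SE 0.34), Aldh1a1 at 0.69 (SE 0.37) and Dhrs3 at -0.35 (SE 0.20) on the log2 fold change scale, while Cdx2 and Cdx4 had 0 counts in every library. Of 12 further prostate transcription factors 10 were tested and 0 passed by these tools, with 2, 3 and 2 at an unadjusted p under 0.05, against the same 4.26%, 6.69% and 3.58% of all genes. The median was -0.66. Gata2 was at 181.8, 243.3, 65.6, 47.9 and 43.2 CPM (log2 fold change -1.84, SE 0.56), Gata3 had -1.15 (SE 0.41) and Sox9 -1.27 (SE 0.61). Gata2 was high in control replicates 1 and 2, as Hoxd13 was, and its value was -0.52 without them.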

How the data were processed

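Total RNA libraries (TruSeq Stranded, flash-frozen tissue, per the labels' protocols) came from 3 controls and 2 mice labelled Ghr deletion. STAR 2.5.3a, RSEM 1.3.0, bcl2fastq 2.20.422 and GRCm38 are listed in the submitters' processing notes. No source used here gives the annotation release or the strand setting. The authors deposited 1 RSEM gene table per sample with expected counts, TPM and effective length, per the file headers. RSEM divides ambiguous reads by a model, so overlapping or near-identical genes are uncertain.

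Expected counts were rounded, filtered with filterByExpr, scaled by TMM and tested with edgeR 4.0.16 (quasi-likelihood, group as the only term, R 4.3.3) with Benjamini-Hochberg adjustment at 0.05. CPM uses the TMM-scaled library size. The SE is the size of the change divided by the square root of F. TPM was used within libraries, because it moves the median of all genes between groups. The libraries held 19517831 to 41553558 expected counts, where 3 counts equal 0.0662 to 0.185 CPM, covering counting error only. Symbols matched 99.46% of identifiers. Gene positions are from GENCODE on GRCm38, and promoter windows from RefSeq on GRCm38.p6.

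The members, gene lists and tests were chosen with earlier results of these data known. The text names every member of paralog groups 9 to 13, for each cluster the member of groups 1 to 8 with the highest mean TPM and the one with the smallest p, and the 3 genes of smallest p in each further list, except that a few of these genes are not reported here. Other named genes and the ratios were chosen with their values known. Alternatives tried were other scalings and filters, DESeq2 1.42.0, limma 3.58.1 (voom, and log2(TPM + 1) or log2(TPM + 0.1)), effective-length offsets, removal of the 20 most abundant genes, the replicate number as a block, and each library left out. Leaving out control replicates 1 and 2 together was added after seeing the data. Simulated counts were used to test the edgeR step.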

Additional observations from a re-analysis of the deposited data

How the results depend on the processing

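The log2 fold changes of tested members of groups 9 to 13 and of Hoxa7, Hoxb6, Hoxb8, Hoxc6 and Hoxd8 were recomputed under the alternatives. Of these values, 233 kept their direction and their side of the threshold, 58 changed direction and 6 newly passed. While edgeR, DESeq2 and limma-voom called 0 Hox genes, log2(TPM + 1) called 2 (Hoxa11 at 1.77, and Hoxa3) and log2(TPM + 0.1) called 1 (Hoxa11 at 2.55), on a scale that moved the median of all genes to 0.866 and 1.327. Over all genes the calls were 2 with no filter on low counts, 81 with DESeq2, 2294 and 733 on the TPM scales, and 0 to 48 with 1 library left out, the 48 without control replicate 3. The replicate numbers are shared by 2 pairs only, whose deviations correlated at 0.281 and 0.296, and with 2 libraries in a group the crossed pairs give the same values with the sign changed. With the number as a replicate block, 1126 of 18590 genes were called. Of the 27 tested Hox genes 4 were called (Hoxa11 1.98, Hoxd13 -2.89, Hoxb13 -5.26 and Hoxb8 -1.37), and Hoxa13 was at 0.04. Number 3 belongs to 1 control alone, so its block term takes up control replicate 3, which then adds nothing to the group difference. Without control replicate 3 and with no block, these 4 values were 1.97, -2.93, -5.19 and -1.41, and 0 Hox genes were called. The share of groups 9 to 13 was 42.34% and 46.98% without the most abundant member, and 38.17% in the libraries labelled Ghr deletion when computed from expected counts.

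The following log2 fold changes changed direction, and the cause was not tested. On log2(TPM + 1) the values were 1.07 for Hoxa13, 0.29 for Hoxa7, 0.91 for Hoxb6, 0.35 for Hoxb8, 1.31 for Hoxb9, 0.04 for Hoxc10, 0.08 for Hoxc6, 0.59 for Hoxd10, 0.30 for Hoxd11 and 0.00 for Hoxd12. On log2(TPM + 0.1) they were 1.38, 0.98, 1.02, 0.47, 1.48, 0.13, 0.45, 1.09, 0.85 and 0.07 in that order. With library size only they were 0.57 for Hoxa13, 0.56 for Hoxa7, 0.30 for Hoxb6, 0.60 for Hoxb9, 0.32 for Hoxd10 and 0.24 for Hoxd11. Hoxa13 and Hoxb9 were at 0.02 with upper-quartile factors and with no filter, and at 0.01 with limma-voom, where Hoxa7 was at 0.28. With effective-length offsets Hoxa9 was at -0.30 and Hoxb9 at 0.02. Without control replicates 1 and 2 the values were -0.35 for Hoxa10, -0.21 for Hoxa11, 0.97 for Hoxa7, 0.16 for Hoxb9, 0.95 for Hoxc6, 0.51 for Hoxd10, 0.41 for Hoxd11, 0.31 for Hoxd12, 0.08 for Hoxd13, -0.27 for Hoxd8 and -0.41 for Hoxd9. With 1 library left out, Hoxa13 ran from -0.23 to 0.17, Hoxa7 from -0.61 to 0.83, Hoxa9 from -0.01 to 0.57, Hoxb9 from -0.10 to 0.16, Hoxd11 from -1.03 to 0.07 and Hoxd9 from -0.14 to 0.32. Counts limit the Hoxc genes, Hoxb13 and Hoxd12 most.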
